A study of Homo sapiens with 4 samples.

Results

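The genes described here are the RNF (RING finger) genes, a large set of ubiquitin ligase genes, found by symbol in a table of RNA recovered with an antibody against YTHDF3. The rule took every symbol made of RNF, a number and, where present, the letter A or B, or of MARCH and a number. It found 84 of the 36203 genes in the table, all with an RNF symbol and all protein-coding in GENCODE release 29. The MARCH genes had been turned into dates in the symbol column, and the 11 of them that could be recognised by identifier were left out, as the rule asks. The series has 4 libraries, 2 of RNA immunoprecipitation with the anti-YTHDF3 antibody (RIP 1 and RIP 2) and 2 of input RNA (Input 1 and Input 2), all from human breast cancer cells grown in DMEM with serum. The line is MDA-MB-231 in one label and MDA-MB-231Br, a brain-seeking derivative, in the text on cell growth. No genotype or treatment separates the groups, a non-specific antibody control was not analysed here, and no label states whether the libraries within a group are separate cultures. The p-values therefore describe the spread among 4 libraries, part or all of which could be technical.

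RING finger proteins hold zinc ions in a fold of cysteines and histidines that binds a ubiquitin-loaded E2 enzyme and helps pass ubiquitin on to a substrate. The RNF name groups many unrelated ligases, which act in DNA repair, in protein quality control at the endoplasmic reticulum (ER), in innate immunity and in growth factor signalling. YTHDF3 is a cytoplasmic reader of N6-methyladenosine (m6A), a mark on mRNA that is placed mostly at sequences with a GGAC core and is common near stop codons. RIP followed by sequencing sets the RNA held by the antibody against the starting RNA.

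Values were taken as FPKM, since no header names their unit, that is, as fragment counts scaled to gene length and library size, and a pair of values is given in the order of the library numbers, for RIP as for Input. They summed to 301226 and 301483 in RIP, against 700141 and 690869 in Input. RIP 2 had 13905 genes above 0, and the other libraries had between 16126 and 16604. Markers of the line were present in the inputs (VIM, CD44, CAV1, EGFR and AXL between 75.3 and 1322 FPKM), while CDH1 and ESR1 were at 0 in all 4 libraries and PGR was at most 0.118 FPKM. PTPRC and GFAP, which mark leukocytes and astrocytes, were also at 0 in all 4 libraries, and the endothelial marker PECAM1 was at most 0.69 FPKM. YTHDF3 mRNA had 75.8 and 72.4 FPKM in the RIP libraries, against 10.3 and 13.8 FPKM in the inputs. RIP 2 stood apart by its high values on chromosome 1, where the median log2 difference from RIP 1 was 1.57, and on chromosome 10, where it was 0.64. On the other autosomes and X this median lay between -0.89 and -0.33. These are bulk libraries, in which fewer cells with a transcript and less of it per cell cannot be told apart.

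Of the 84 RNF genes, 59 reached 1 FPKM in at least 2 libraries and were tested. Their median level was 13.3 and 7.83 FPKM in the RIP libraries, against 8.87 and 8.21 FPKM in the inputs. RNF26, RNF139, RNF145, RNF168, RNF103, RNF185, RNF144B and RNF122 rose in RIP, and RNF181, RNF138, RNF5, RNF167, RNF141 and RNF170 fell (limma, Benjamini-Hochberg adjusted p under 0.05 over the 12848 genes tested). RNF122 reached the filter through RIP alone, and RNF138, RNF141 and RNF170 through Input alone, so that these 4 had to differ and their calls support nothing further. The other 55 tested genes, with 1 FPKM reached in at least 1 library of each group, held 7 of the higher and 3 of the lower calls. The 8 higher genes were 13.6% of those tested, against 15.4% of all genes, and the 6 lower genes were 10.2%, against 24.3% of all genes. Among the 10852 protein-coding genes tested, 16.8% were higher and 19.8% lower. The share of RNF genes called higher was thus close to the background, and the share called lower was below it, a difference for which no test was made. The tested RNF genes had a median log2 fold change of 0.59, against -0.10 over all genes and 0.12 over protein-coding genes. Fold changes are differences of log2(FPKM + 1), RIP minus Input, and on this scale the change of a gene near 0 is understated.

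The counts of calls depended on scaling and on single libraries. A fit with 1 RIP library left out holds no spread between RIP libraries, which correlated at 0.82, against 0.94 for the inputs. Its p-values and calls, here and below, rest on the spread between the inputs alone, and a call gained in it is no added support. With 1 input left out they rest on the spread between the RIP libraries alone. After quantile normalization 13 RNF genes were higher and 4 lower, with 24% and 22% of all genes called, and without RIP 2 there were 16 and 8, with 27.4% and 29.1% of all genes. With Input 1 or Input 2 left out no gene of the table passed (limma). At an unadjusted p under 0.05, 4 RNF genes were higher and 5 lower without Input 1, beside 737 and 2299 of all 12848 genes, and 2 and 4 without Input 2, beside 608 and 2257.

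**Figure D1:**
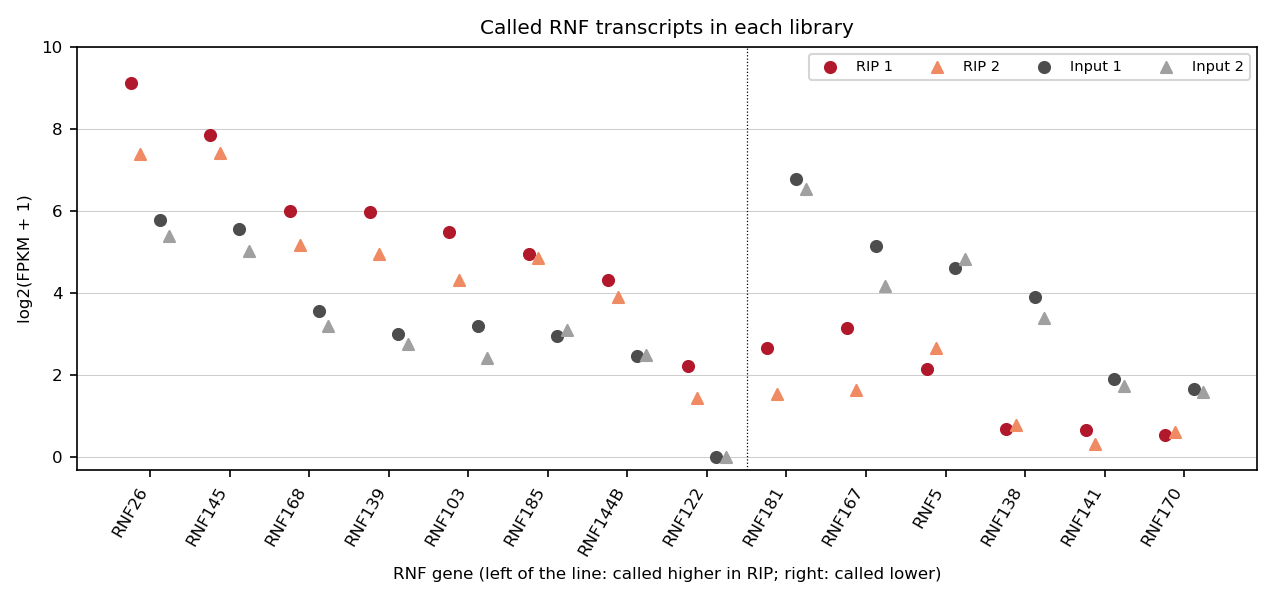
Level of the 14 RNF transcripts that passed the test, as log2(FPKM + 1) on the y axis, with 1 point per library (RIP 1, RIP 2, Input 1, Input 2). To the left of the dotted line both RIP points lie above both Input points for each of the 8 genes, and to the right of it both lie below for each of the 6.

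RNF26, an ER membrane ligase, organises endosomes around the nucleus and acts on the innate immune adaptor STING. It had 555 FPKM in RIP 1 and 167 FPKM in RIP 2, against 54.6 FPKM in Input 1 and 41.2 FPKM in Input 2. The RIP libraries did not overlap the inputs, although RIP 1 was far above RIP 2. The log2 fold change was 2.66 with SE 0.69 (adjusted p = 0.028), and 1.79 without RIP 1. With no filter on low values it missed the threshold (adjusted p = 0.0659). Among the tested RNF genes, RNF26 had the highest value in RIP 1, and by the mean of the inputs it came after RNF181 and RNF10.

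RNF145 and RNF139 are related ER ligases with many membrane spans that act in the control of sterol synthesis. RNF145 had 231 and 169 FPKM in the RIP libraries, against 46.5 and 31.7 FPKM in the inputs (log2 change of 2.33 with SE 0.50, adjusted p = 0.0176). RNF139 had 62.3 and 29.8 FPKM in the RIP libraries, against 7.09 and 5.80 FPKM in the inputs (log2 change of 2.57 with SE 0.53, adjusted p = 0.0165). Both transcripts were thus higher in each RIP library than in either input, and the ratio of RNF139 to RNF145 was 0.269 and 0.177 in RIP, against 0.152 and 0.183 in Input. RNF103, another ER ligase, had 43.8 and 18.9 FPKM in the RIP libraries, against 8.15 and 4.32 FPKM in the inputs. The log2 fold change of RNF103 was 2.10 with SE 0.60 (adjusted p = 0.036). It missed the threshold without RIP 1, at 1.51 (adjusted p = 0.0517), and with no filter (adjusted p = 0.0708). RNF122, an ER and Golgi ligase that targets the RNA sensor RIG-I, was listed at 0 in both inputs and had 3.71 and 1.72 FPKM in RIP 1 and RIP 2 (adjusted p = 0.0151). No fold is given against a listed 0.

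RNF168 builds ubiquitin chains on histones around DNA double-strand breaks. It had 62.8 and 35.2 FPKM in the RIP libraries, against 10.9 and 8.21 FPKM in the inputs (log2 change of 2.20 with SE 0.51, adjusted p = 0.0208). RNF144B, a p53-induced ligase of the RING-between-RING class, had 19.1 and 14 FPKM in the RIP libraries, against 4.59 and 4.63 FPKM in the inputs. Its inputs were nearly equal and both lay below the RIP values, with a log2 fold change of 1.63 and SE 0.48 (adjusted p = 0.0392, and 0.0602 with no filter).

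The GGACT motif, a frequent form of the m6A consensus, is shown for 6 of the 8 called RNF genes that hold it in the coding sequence, since YTHDF3 is a reader of this mark. The 4 sequences of transcripts that rose come first and the 2 of transcripts that fell follow. They are from the GENCODE 29 transcripts on GRCh38, sense strand, with GGACT in capitals. Up to 30 bases are shown on each side of the last copy in the coding sequence, and copies in the 3′ UTR were not considered.
RNF26: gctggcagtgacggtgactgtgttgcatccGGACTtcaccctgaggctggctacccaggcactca
RNF145: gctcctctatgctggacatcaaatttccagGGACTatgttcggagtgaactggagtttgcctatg
RNF168: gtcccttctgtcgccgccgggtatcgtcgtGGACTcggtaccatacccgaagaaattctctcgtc
RNF103: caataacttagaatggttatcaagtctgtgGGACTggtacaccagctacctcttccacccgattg
RNF181: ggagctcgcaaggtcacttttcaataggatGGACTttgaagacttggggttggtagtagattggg
RNF167: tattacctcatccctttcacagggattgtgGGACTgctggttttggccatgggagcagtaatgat
These genes lie at chr11:119334527-119337313 (RNF26, plus strand), chr5:159157409-159210053 (RNF145, minus), chr3:196468783-196503768 (RNF168, minus), chr2:86603393-86623866 (RNF103, minus), chr2:85595725-85597613 (RNF181, plus) and chr17:4940008-4945222 (RNF167, plus). The copies shown end 557 bases before the end of the stop codon in RNF26, 1694 in RNF145, 1530 in RNF168, 677 in RNF103, 353 in RNF181 and 505 in RNF167. On the sense strand, the coding sequence held GGACT in 6 of the 8 RNF genes called higher and in 2 of the 6 called lower, against 43 of the 59 tested (72.9%) and 74.5% of the 10847 coding genes tested that have a representative transcript. RNF122, which reached the filter through RIP alone, is among the 6. RNF138, RNF141 and RNF170, which reached it through Input alone, lack the motif in the coding sequence. The counts of the higher and lower genes are therefore not set against each other. A match is a run of letters, and methylation was not measured in these libraries.

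RNF181 had the largest decrease and was the most abundant RNF transcript in the inputs. This small cytosolic ligase, which binds an integrin tail in platelets, had 5.31 and 1.90 FPKM in the RIP libraries, against 109 and 92.1 FPKM in the inputs. The log2 fold change was -4.57 with SE 0.54 (adjusted p = 0.00873), and both RIP values lay far below both inputs. RNF138, a ligase of DNA end resection, had 0.607 and 0.722 FPKM in the RIP libraries, against 14 and 9.62 FPKM in the inputs (log2 change of -2.93 with SE 0.46, adjusted p = 0.01). GENCODE lists processed pseudogenes of RNF138 and of RNF5, so the values of both genes may share reads with these copies.

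RNF167, a lysosomal and endosomal ligase with a protease-associated domain, had 7.91 and 2.13 FPKM in the RIP libraries, against 34.8 and 17.2 FPKM in the inputs. The log2 fold change of RNF167 was -2.27 with SE 0.68 (adjusted p = 0.0409). It missed the threshold without RIP 2, at -1.52 (adjusted p = 0.0566), with a pseudocount of 0.1 (adjusted p = 0.0583), with no filter (adjusted p = 0.0842) and after scaling to protein-coding genes outside chromosomes 1 and 10 (adjusted p = 0.0537). Part of its exons overlaps SLC25A11 on the opposite strand, as exons of RNF26, RNF103, RNF138, RNF145, RNF168 and RNF185 overlap antisense genes in GENCODE. The use of strand in counting is not given in the sources used here, so reads of such partners cannot be told apart. RNF141, first described in testis, had 0.585 and 0.245 FPKM in the RIP libraries, against 2.77 and 2.35 FPKM in the inputs (log2 change of -1.34 with SE 0.34, adjusted p = 0.0269). Its call was lost after quantile normalization, at -0.92 (adjusted p = 0.0578), and with no filter (adjusted p = 0.0594). RNF170, an ER ligase that turns over inositol trisphosphate receptors, had 0.468 and 0.546 FPKM in the RIP libraries, against 2.17 and 2.02 FPKM in the inputs. Both RIP values lay below the inputs, but the call (log2 change of -1.04 with SE 0.32, adjusted p = 0.0432) was lost under 8 of the 11 alternatives.

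**Figure D2:**
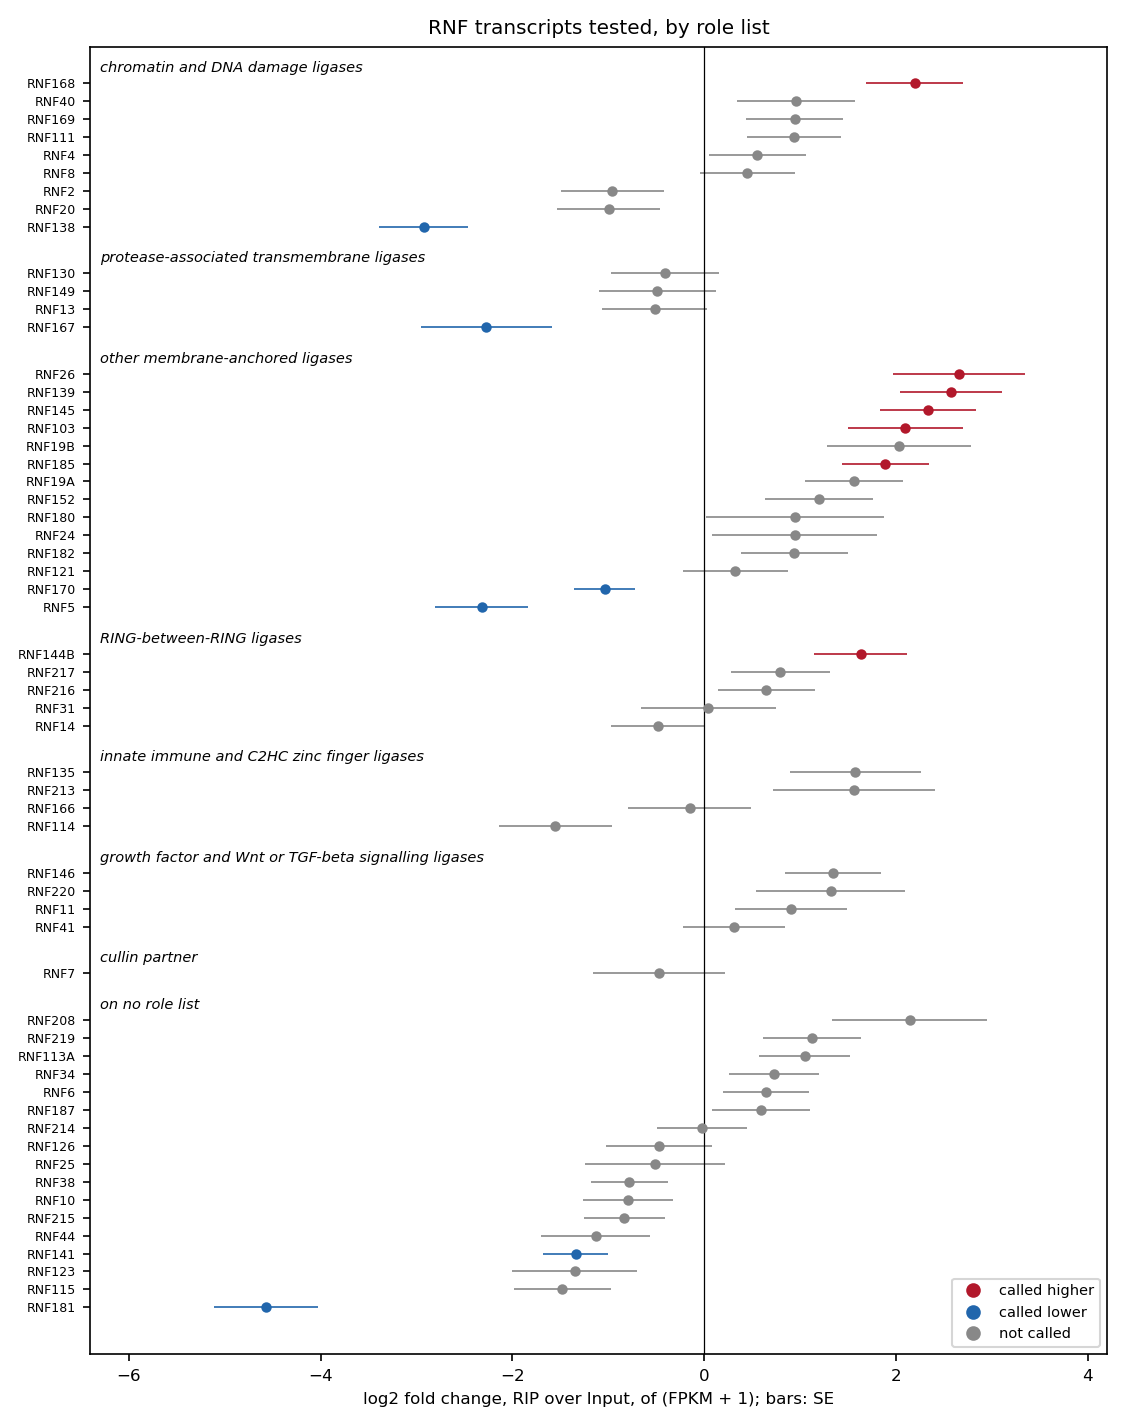
Log2 fold change, RIP over Input, of (FPKM + 1) for 58 tested RNF transcripts, by role list, with bars for the SE. RNF122, listed at 0 in both inputs, is not drawn, and a gene on several lists is drawn under the first of them. Red points were called higher, blue points called lower and grey points not called, and 5 of the 7 red points stand in the list of other membrane-anchored ligases.

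Ligases anchored in membranes, outside the protease-associated class, held 6 of the 8 calls for higher. Of 19 listed, 15 were tested, 6 were higher (RNF26, RNF139, RNF145, RNF103, RNF185 and RNF122) and 2 were lower (RNF5 and RNF170), with RNF122 and RNF170 tested through the levels of 1 group alone. This is 40% higher and 13.3% lower, beside 15.4% and 24.3% of all genes tested. The protease-associated class, kept apart as its own list, had none higher and 1 lower of 4 tested. The list of 19 was made with earlier results of these data known, and RNF122 and RNF170 are counted in its shares. These shares therefore describe the list and support nothing further. The median log2 fold change of the list was 1.56, or 1.38 without RNF122. In 10 of the 15, both RIP values lay above both inputs, and in 2 both lay below, beside 35.7% and 40.1% of all genes tested. The higher calls of this list numbered 4 with no filter on low values, beside 3.88% of all genes, and 6 with a pseudocount of 0.1, beside 11.6%. They numbered 8 after quantile normalization, beside 24%, and 8 after scaling to protein-coding genes outside chromosomes 1 and 10, beside 26.2%. With RIP 2 shifted per chromosome there were 7, beside 16.6% of all genes. RNF19B and RNF19A, paralogous membrane ligases of the RING-between-RING class, also lay above the inputs without passing. RNF19B, on chromosome 1, had 25.1 and 118 FPKM in the RIP libraries, against 12.4 and 12.8 FPKM in the inputs (log2 change of 2.04, adjusted p = 0.0699). Its log2 change was 3.13 without RIP 1, 0.94 without RIP 2 and 0.98 with RIP 2 shifted per chromosome (adjusted p = 0.0828). RNF19A had 51.0 and 76.0 FPKM in the RIP libraries, against 15.4 and 27.1 FPKM in the inputs (log2 change of 1.56, adjusted p = 0.0516). The log2 change of RNF19A was 1.84 without RIP 1 and 1.28 without RIP 2.

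RNF185 and RNF5 are paralogs that work at the ER in the degradation of misfolded proteins, and their transcripts went in opposite directions. RNF185 had 30.1 and 28.2 FPKM in the RIP libraries, against 6.74 and 7.57 FPKM in the inputs (log2 change of 1.89 with SE 0.45, adjusted p = 0.0227). RNF5 had 3.42 and 5.38 FPKM in the RIP libraries, against 23.5 and 27.6 FPKM in the inputs (log2 change of -2.32 with SE 0.49, adjusted p = 0.0168). The ratio of RNF185 to RNF5 was 8.80 in RIP 1 and 5.25 in RIP 2, against 0.286 in Input 1 and 0.274 in Input 2. An exact permutation test of the log2 ratio of (FPKM + 1) over the libraries gave a two-sided p of 0.333, the smallest that 2 libraries against 2 allow. The coding sequences are 579 and 543 bases long and match at 69.3% of 531 aligned bases. Neither coding sequence holds GGACT, but the whole representative transcript has 9 copies in RNF185 and 1 in RNF5. The last 60 coding bases of each, which lie in the C-terminal region that anchors these ligases in the membrane, are shown with the stop codon in capitals.
RNF185: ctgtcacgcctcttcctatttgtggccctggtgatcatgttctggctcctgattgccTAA
RNF5: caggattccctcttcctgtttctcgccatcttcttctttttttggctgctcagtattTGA
Outside the coding sequence the transcripts differ in size. The representative transcript of RNF185 (chr22:31160183-31207019, plus strand) has 3171 bases with a 3′ UTR of 2433 bases, and that of RNF5 (chr6:32178354-32180793, plus strand) has 1168 bases with a 3′ UTR of 467 bases. These pairs of related genes were picked for description after their values were seen.

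**Figure D3:**
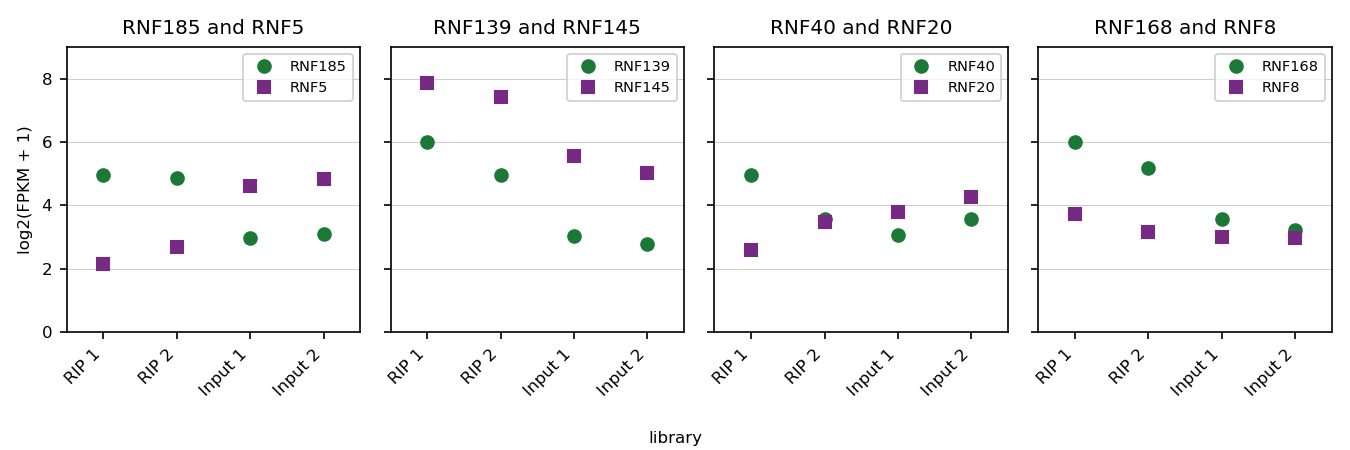
Level of 4 pairs of related RNF transcripts as log2(FPKM + 1) on the y axis, with 1 point per gene and library on the x axis. RNF185 lies above RNF5 in both RIP libraries and below it in both inputs, while RNF139 lies below RNF145 in all 4 libraries.

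Of the 9 ligases of chromatin and DNA damage tested, RNF168 was higher, RNF138 was lower and 7 did not pass. This is 11.1% in each direction, beside 15.4% higher and 24.3% lower of all genes tested. RNF138 reached the filter through Input alone, so its call supports nothing further. The median of the 9 was 0.55 on the log2 scale. RNF8, which acts upstream of RNF168 at DNA breaks, had 12.1 and 7.83 FPKM in the RIP libraries, against 6.94 and 6.86 FPKM in the inputs (log2 change of 0.45, adjusted p = 0.486). The ratio of RNF168 to RNF8 was 5.17 and 4.50 in RIP, against 1.57 and 1.20 in Input. RNF40 and RNF20 form the complex that ubiquitinates histones during transcription. RNF40 had 30.2 and 10.9 FPKM in the RIP libraries, against 7.27 and 10.8 FPKM in the inputs (log2 change of 0.96, adjusted p = 0.238). RNF20 had 5.03 and 10.1 FPKM in the RIP libraries, against 12.9 and 18.1 FPKM in the inputs (log2 change of -0.997, adjusted p = 0.172). The ratio of RNF40 to RNF20 was above 1 in both RIP libraries (6.01 and 1.08) and below 1 in both inputs (0.563 and 0.598), with the wide gap in RIP 1. Without RIP 2 the log2 change was 1.66 for RNF40 and -1.43 for RNF20. Without RIP 1 it was 0.26 for RNF40 and -0.56 for RNF20.

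Among the protease-associated transmembrane ligases, 4 of 9 were tested, none was higher and 1 was lower (RNF167). The lower share was 25%, beside 24.3% of all genes tested, of which 15.4% were higher. With 4 genes these shares give no contrast with the background. The highest of the 4, RNF130, had 18.8 and 8.55 FPKM in the RIP libraries, against 21.8 and 13.6 FPKM in the inputs (log2 change of -0.41, adjusted p = 0.578). Of the 7 RING-between-RING ligases tested, RNF144B was higher (14.3%, beside 15.4% of all genes tested) and none was lower (beside 24.3%). Their median was 0.79 on the log2 scale. RNF14, which acts on stalled translation complexes, was the lowest of these with 8.0 and 6.92 FPKM in the RIP libraries, against 13.0 and 8.97 FPKM in the inputs (log2 change of -0.48, adjusted p = 0.445). RNF31, the catalytic subunit of the linear ubiquitin chain complex, had a log2 fold change of 0.04 with overlapping groups.

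Innate immune and C2HC zinc finger ligases gave no higher call and 1 lower (RNF138) among 6 tested. The lower share was 16.7%, beside 24.3% of all genes tested, and RNF138 reached the filter through Input alone. RNF135, which activates RIG-I, had 34.9 and 9.23 FPKM in the RIP libraries, against 5.78 and 5.08 FPKM in the inputs (log2 change of 1.58, adjusted p = 0.106). It passed after quantile normalization (adjusted p = 0.0498) and after scaling to protein-coding genes (adjusted p = 0.0363). Its log2 change was 2.48 without RIP 2 and 0.67 without RIP 1. Its level in RIP 1 was far above that in RIP 2. RNF213, a very large ligase linked to moyamoya disease, had 28.7 and 4.25 FPKM in the RIP libraries, against 3.05 and 3.39 FPKM in the inputs (log2 change of 1.57, adjusted p = 0.172). Its RIP 2 value was close to the inputs, and the log2 change was 2.82 without RIP 2 and 0.31 without RIP 1. RNF114, a relative of RNF138, had 13.3 and 4.50 FPKM in the RIP libraries, against 25.1 and 24.8 FPKM in the inputs (log2 change of -1.55, adjusted p = 0.0755). The log2 change of RNF114 was -2.24 without RIP 1 and -0.87 without RIP 2.

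None of the 5 tested ligases of growth factor, Wnt or TGF-beta signalling passed, beside 15.4% higher and 24.3% lower of all genes tested. Their median log2 fold change was 0.94. RNF146, which degrades the Wnt pathway scaffold axin, had 9.78 and 14.2 FPKM in the RIP libraries, against 3.38 and 4.81 FPKM in the inputs (log2 change of 1.34, adjusted p = 0.0725). Its log2 change was 1.59 without RIP 1 and 1.10 without RIP 2. It passed after quantile normalization (adjusted p = 0.043) and after the protein-coding scaling (adjusted p = 0.0418). In 4 of the 5 both RIP values lay above both inputs, beside 35.7% of all genes tested. Of these 4, RNF11 and RNF220 lie on chromosome 1, where RIP 2 was raised. Their RIP 1 values were barely above the higher input, at 51.6 against 49.1 FPKM for RNF11 and 11.3 against 11.2 FPKM for RNF220. RNF41, a ligase for the receptor ERBB3, was the exception with 14.4 and 7.41 FPKM in the RIP libraries, against 9.21 and 7.27 FPKM in the inputs. RNF7, a RING partner of cullin 5, also overlapped, with 50.5 and 13.0 FPKM in the RIP libraries, against 41.0 and 32.1 FPKM in the inputs. Its log2 fold change was -1.41 without RIP 1 and 0.46 without RIP 2. RNF10, which ubiquitinates the small ribosomal subunit, had 59.8 and 43.3 FPKM in the RIP libraries, against 87.5 and 90.1 FPKM in the inputs. Its groups did not overlap, but the log2 fold change of -0.79 did not pass (adjusted p = 0.207). The 17 tested genes on no role list held 2 of the lower calls (RNF181 and RNF141) and none of the higher. The lower share was 11.8%, beside 24.3% of all genes tested, of which 15.4% were higher.

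Over all 59 tested RNF genes, both RIP values lay above both inputs in 30, or both below in 16, and the other 13 overlapped. The same held for 35.7% of all genes tested (above) and 40.1% (below). The 25 untested genes included 12 listed at 0 in all 4 libraries, among them the meiotic genes RNF212 and RNF212B. The other 13 were at most 2.85 FPKM, the value of RNF207 in RIP 2. None of the 7 genes listed for germline and meiosis reached the filter, and RNF43, the Wnt receptor ligase, was at most 0.328 FPKM. RNF125, a ligase of RIG-I, was also below the filter with 0.032 and 0.0535 FPKM in the RIP libraries, against 0.662 and 0.609 FPKM in the inputs. With no filter on low values it was called lower.

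**Figure D4:**
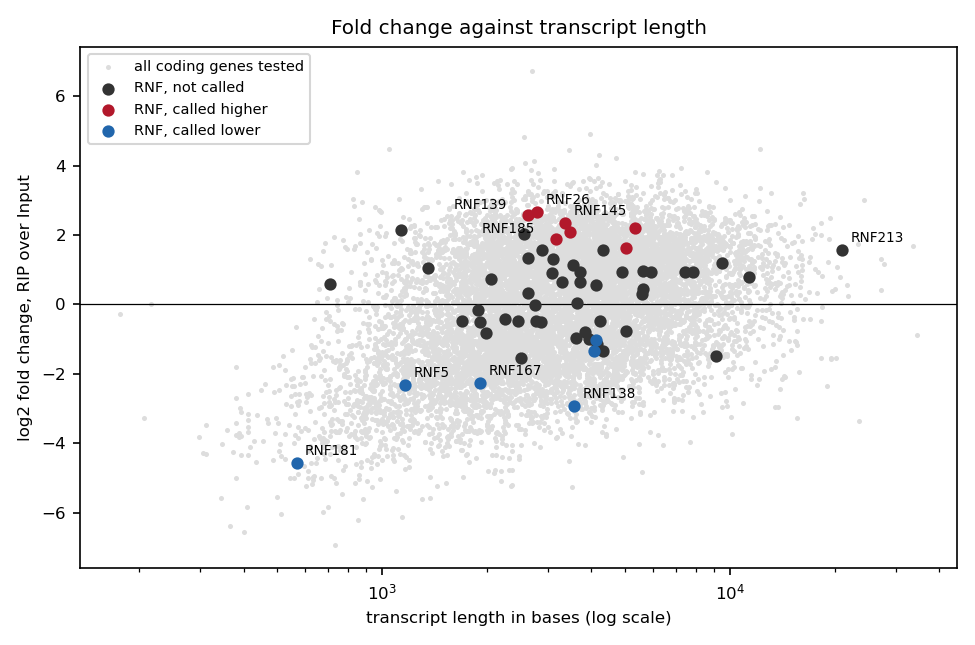
Log2 fold change, RIP over Input, of (FPKM + 1) on the y axis against the length of the representative transcript in bases on a log scale. Grey points are all coding genes tested and coloured or black points are RNF transcripts, without RNF122. RNF181 and RNF5, at 569 and 1168 bases, lie low on the left, where most grey points are also below 0.

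Longer transcripts tended to have higher fold changes across all coding genes. Spearman's rho was 0.10 over the 59 RNF genes and 0.35 over the 10847 coding genes, for values that all come from the same 4 libraries. For coding sequence length it was 0.23 and 0.36. For the mean input, which itself enters the fold change, it was -0.23 and -0.45. RNF181 has the shortest representative transcript of the tested RNF genes, with 569 bases in 5 exons. In transcripts of up to 2395 bases, the shortest of 3 equal classes of all coding genes tested, 3 of 13 RNF genes were lower and 1 was higher, beside 36.4% and 9.62% of all coding genes of that length. Of the 16 RNF genes longer than 4260 bases 2 were higher and none lower, beside 21.3% and 8.63% of all coding genes. The 8 RNF genes called higher had a median transcript length of 3268 bases and the 6 called lower 2743 bases, against 3606 bases for the 45 not called. Of the genes called lower, RNF181, RNF5 and RNF167 have 569, 1168 and 1915 bases. RNF138, RNF141 and RNF170 have 3570, 4074 and 4116 bases, but reached the filter through Input alone. The number of exons had a rho of -0.30 among RNF genes and -0.08 among all coding genes, and RNF26 has a single exon. GGACT sites per kilobase of transcript had a rho of 0.02 among RNF genes and 0.14 among all coding genes. The part of transcript length in the calls was not tested.

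**Figure D5:**
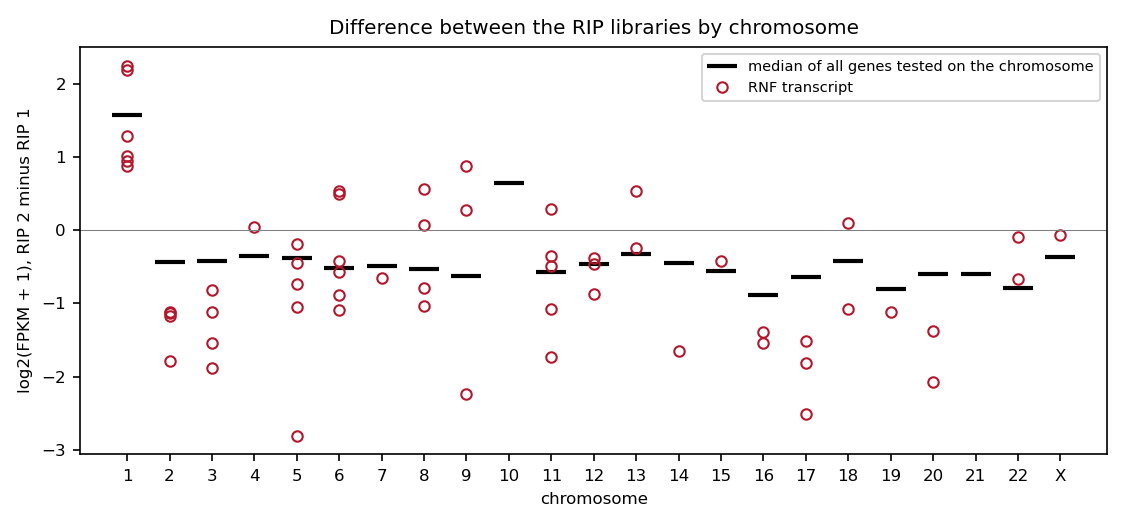
Difference of log2(FPKM + 1) between RIP 2 and RIP 1 on the y axis, by chromosome. Circles are tested RNF transcripts and black bars the median of all genes tested on that chromosome. All 6 circles on chromosome 1 lie above 0, and no tested RNF transcript lies on chromosome 10.

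The excess of RIP 2 on chromosome 1 was visible in RNF genes. In all 6 tested genes of that chromosome RIP 2 was above RIP 1, with a median log2 difference of 1.14, against 10 of the 53 on other chromosomes, where the median was -0.82. None of the 6 was called in either direction, so the 14 calls rest on genes outside chromosomes 1 and 10. RNF220, a ligase that stabilises beta-catenin, had 11.3 and 57.4 FPKM in the RIP libraries, against 8.45 and 11.2 FPKM in the inputs. RNF11, a small ligase partner in NF-kB and growth factor signalling, had 51.6 and 127 FPKM in the RIP libraries, against 49.1 and 37.3 FPKM in the inputs. In both genes RIP 1 was close to the inputs and RIP 2 above them. Without RIP 1 the log2 change was 2.44 for RNF220 and 1.54 for RNF11. Without RIP 2 their log2 changes were 0.20 and 0.27. With the fit redone outside chromosomes 1 and 10, the 8 higher and 6 lower calls remained and RNF19A joined the higher ones, beside 16.6% higher and 28.5% lower of the 10934 genes tested there.

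Other genes of the ubiquitin pathway were taken from lists made by function. Of 6 ubiquitin and E1 genes, none was higher and 3 were lower, beside 15.4% and 24.3% of all genes tested. RPS27A, which encodes ubiquitin fused to a ribosomal protein, was among these and had 38.4 and 25.8 FPKM in the RIP libraries, against 648 and 556 FPKM in the inputs (log2 change of -4.21, adjusted p = 0.00873). Of 21 E2 enzymes, the partners that RING fingers bind, none was higher and 13 were lower (61.9%, beside 24.3% of all genes), with a median log2 fold change of -1.93. After scaling to protein-coding genes outside chromosomes 1 and 10, 10 were lower and 2 higher, with a median of -1.47, beside 19.4% and 26.2% of all genes. Without RIP 2 there were 13 lower and 3 higher, beside 29.1% and 27.4%. The largest of these decreases was UBE2T, the E2 of the Fanconi anaemia pathway, with 1.01 FPKM and a listed 0 in RIP, against 39.8 and 55.9 FPKM in Input. The smallest was that of UBE2J1, an ER enzyme (log2 change of -1.70, adjusted p = 0.0329). UBE2W, also called lower, had 0.491 and 0.916 FPKM in the RIP libraries, against 7.57 and 6.97 FPKM in the inputs. It reached the filter through Input alone, so its call supports nothing further.

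Among 44 tested ligases of the RING class with other names, 6 were higher (13.6%) and 3 lower (6.82%), beside the same 15.4% and 24.3%. Their median was 0.30 on the log2 scale. There were 11 higher and 5 lower without RIP 2, beside 27.4% and 29.1% of all genes, and 2 and 3 with no filter on low values, beside 3.88% and 11.5%. SIAH1, a ligase of hypoxia and Wnt signalling, had 35.0 and 15.6 FPKM in the RIP libraries, against 4.48 and 2.74 FPKM in the inputs (log2 change of 2.43, adjusted p = 0.0227). RBX1, the common RING subunit of cullin ligases and the counterpart of RNF7, had 1.79 and 0.531 FPKM in the RIP libraries, against 34.1 and 32.7 FPKM in the inputs (log2 change of -4.06, adjusted p = 0.00873). Among 20 binding partners of RNF ligases 6 were higher (30%) and 1 lower (5%), again beside 15.4% and 24.3% of all genes. With no filter 1 was higher and none lower, and with a pseudocount of 0.1 there were 4 and 1, beside 11.6% and 20.4% of all genes. RNF2, a Polycomb ligase, had 2.46 and 5.62 FPKM in the RIP libraries, against 8.24 and 8.34 FPKM in the inputs, and did not pass (log2 change of -0.96, adjusted p = 0.187). RNF2 lies on chromosome 1, where RIP 2 was raised, and it was called lower with RIP 2 shifted per chromosome. Its log2 change was -1.42 without RIP 2 and -0.49 without RIP 1. CUL5, the cullin that RNF7 serves, was the lower one of the partners (log2 change of -1.61, adjusted p = 0.0343).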

How the data were processed

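Gene values of 2 YTHDF3 RIP and 2 input libraries were compared, grouped by title and numbered in accession order. The authors deposited 1 normalized value per gene and library, taken here as FPKM (scaled to gene length and library size) from the values, since no header names the unit. HISAT2 and GRCh38 (hg38) are named in the submitters' processing notes, while the aligner's version, the counting program, the annotation and any filter are not stated there. The labels' extraction protocol mentions embryos and an m6A antibody, unlike the cells and the RIP antibody named elsewhere. Repeats of an identifier (14 of 36217 rows) were left out. Depth is unknown: with the commonest low value taken as 1 read, at most 40.3% of low values came out whole within 0.03, so no count test was run.

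The 12848 genes that reached 1 FPKM in 2 or more libraries were tested on log2(FPKM + 1) with limma 3.58.1 in R 4.3.3 (empirical Bayes with a mean-variance trend, no block, two-sided, Benjamini-Hochberg, threshold 0.05), after a test on simulated data. Called means past that threshold. Positions, exons and transcripts come from GENCODE 29, with 1 transcript per gene (best APPRIS rank, then longest coding sequence). Genes named with values are all called RNF genes, the 3 with the highest mean input, those listed at 0 in 1 group, the highest and lowest of each role list, and genes chosen after their values were seen (related, untested, on chromosome 1, or of other pathway lists). The RNF genes and all lists were chosen with earlier results of these data known. Alternatives were another pseudocount, no filter, other scalings, a shift of RIP 2 per chromosome, a block, genes outside chromosomes 1 and 10, and each library left out. Those for the membrane-anchored list and for other pathway genes were chosen after seeing the data. Values of some genes on the other pathway lists are not reported here.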

Additional observations from a re-analysis of the deposited data

How the results depend on the processing

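Of the 8 higher and 6 lower RNF calls, all 14 kept their sign under each of the 11 alternatives. In each of these genes both RIP values lay on the same side of both inputs. Leaving out a library, another pseudocount, no filter, the block or the fit outside chromosomes 1 and 10 therefore could not change a sign. Only the other scalings and the shift of RIP 2 could have done so. RNF genes called higher numbered 5 with no filter on low values, 13 after quantile normalization, 16 after scaling to protein-coding genes outside chromosomes 1 and 10, and 0 to 16 with 1 library left out, where the lower ones numbered 0 to 8. All genes called higher numbered 718 with no filter, 3085 after quantile normalization and 3370 after the protein-coding scaling (57.5% of calls higher, against 38.8% as deposited), and 0 to 3515 with 1 library left out (lower 0 to 3933). The median log2 fold change of the RNF genes was 1.07 after the protein-coding scaling, which moved the median of all genes to 0.31, and 0.16 to 0.75 with 1 library left out. It exceeded the median of all genes by 0.34 to 0.80 under all settings. Other listed ubiquitin pathway genes called higher numbered 12 as deposited, 3 with no filter, 19 after quantile normalization, 21 after the protein-coding scaling and 0 to 21 with 1 library left out (lower 20 as deposited and 0 to 27). The other membrane-anchored ligases called lower numbered 2, and 1 with a pseudocount of 0.1, with no filter, after quantile normalization, after the protein-coding scaling and after the shift of RIP 2. With 1 library left out they numbered 0 to 2 and the higher ones 0 to 9. RNF130 and RNF7, not called, had log2 fold changes of 0.066 and 0.015 after the protein-coding scaling, and with 1 library left out -0.94 to 0.12 and -1.41 to 0.46. RNF41 had -0.13 to 0.75. RNF170 had adjusted p from 0.0591 to 0.174 under the 8 alternatives that lost it. With no filter, RNF26, RNF103 and RNF144B of the higher calls and RNF167, RNF141 and RNF170 of the lower calls missed the threshold. With the title suffix shared by 1 input and 1 RIP library as a replicate block, 11 RNF genes were higher (18.6%, adding RNF19A, RNF19B and RNF208) and 6 lower (10.2%), beside 2477 (19.3%) and 3466 (27%) of all genes. The labels do not say what the suffix means, and the SZ minus Z differences correlated at 0.21 across genes between RIP and input. The cause of these shifts was not tested. Depth is unknown, and with 2 libraries per group the precision is limited. With 1 library left out, the p-values and calls rest on the spread within the other group alone.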
